A study of Mus musculus with 8 samples.

Results

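The JAK, STAT and SOCS genes form the signalling route by which many cytokine receptors reach the nucleus, and 10 of them were followed in mouse small-intestinal organoids with and without RANKL. The members were taken by name from the 54532 genes of the count table: the kinases Jak1, Jak2 and Tyk2, the transcription factors Stat3, Stat5a, Stat5b and Stat6, and the inhibitors Socs1, Socs2 and Socs3. Earlier results of these data were known when they were chosen. All 10 were found in the table, and 9 had enough counts to be tested. A further 8 genes of the same families were read as well.

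Bulk 3′ mRNA sequencing covered 8 libraries of intestinal organoids, 4 of control and 4 of RANKL-treated organoids. RANKL is the ligand of RANK, a receptor of the TNF receptor superfamily, and the question of the comparison was what stimulation of RANK does to gene expression in the intestinal epithelium. Mouse organoids of the study were grown from isolated crypts in a matrix with EGF, NOGGIN and R-spondin, so both groups carried these factors and both lacked the surrounding stroma and immune cells of the gut. The study kept its mouse lines on a C57BL/6J background. The age and sex of the mice behind these 8 libraries, and how much RANKL they received and for how long, are not given in the sources used here. The labels number the replicates but do not say whether they came from separate cultures or animals, so p-values measure only the spread between these samples, which may be technical.

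In the JAK-STAT pathway, a cytokine brings its receptor chains together, the JAK kinases bound to those chains are activated, and STAT proteins are phosphorylated, pair up and enter the nucleus to bind DNA. SOCS proteins are produced in response and shut the pathway down, some by blocking the kinases and most by recruiting a ubiquitin ligase through their SOCS box. In the intestinal epithelium, STAT3 is known for repair and antimicrobial responses, STAT5 for regeneration of the crypt and STAT6 for the response to IL-4 and IL-13 in type 2 immunity. These processes run largely through phosphorylation, which transcript counts do not measure.

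The libraries held 583663 to 7807298 counts (median 3911808 in control and 1613410 in RANKL-treated organoids). One count corresponded to between 0.127 and 1.72 CPM depending on the library, where CPM is the count scaled to a common library total with TMM factors. A count of 0 therefore allows up to 5.16 CPM in the shallowest library, taking 3 counts as the limit. Such limits cover counting error only, since PCR copies may be among the reads. Control library 4 and RANKL library 1 were the shallowest, and 7 members were called higher without both of them, as with them. Reads come from the 3′ ends of transcripts, so a gene's CPM does not scale with its length. In bulk RNA, more cells of a type and more RNA per cell cannot be told apart.

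In RANKL-treated organoids, 7 of the 9 tested members were higher than in control organoids and 0 were lower. All 3 kinases rose modestly (Jak1 only just past the threshold), Stat3 and Stat5a rose among the STAT genes, and Socs1 and Socs2 rose among the inhibitors. Stat5b and Stat6 did not pass the test, and Socs3 had too few counts to be tested. The calls come from edgeR's quasi-likelihood test with Benjamini-Hochberg adjustment over all 9971 genes tested, at a threshold of 0.05. By the same rule 13.6% of all tested genes were higher and 12.4% were lower. The median log2 fold change of the tested members was 0.53, against 0.00017 over all genes tested. Genes were tested only if they passed a filter on low counts, which they could do through 1 group alone. Socs1, at most 2.53 CPM in the control libraries, passed through its RANKL libraries. Its place among the tested members thus rests on the rise itself, and the count and median include it. In 6 members the lowest RANKL library exceeded the highest control library in CPM, a pattern that 13.1% of all tested genes showed. Members are not replicates of the treatment, and these counts carry no test of the group as a whole.

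**Figure D1:**
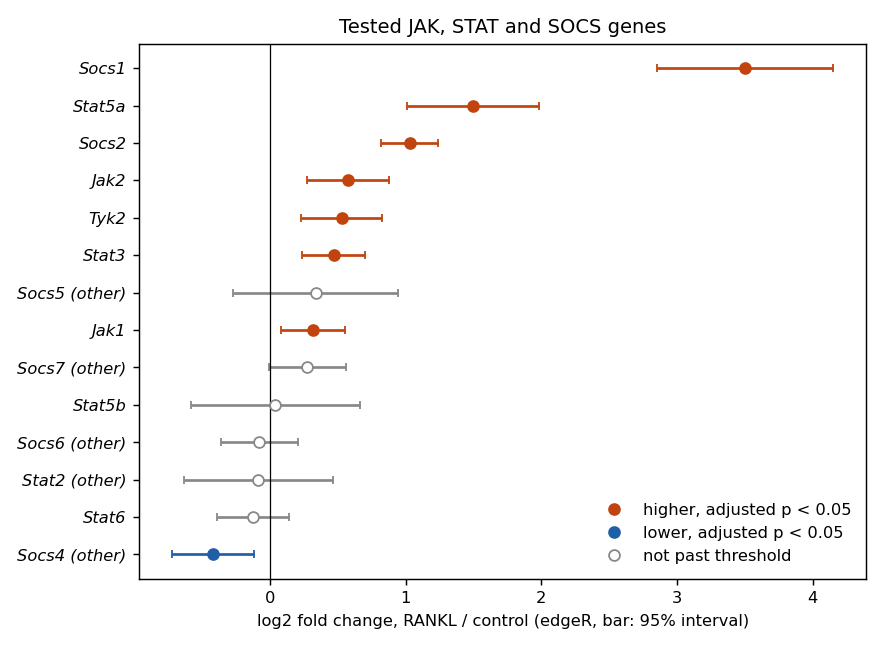
Log2 fold change of RANKL-treated against control organoids for 14 tested genes of the JAK, STAT and SOCS families, sorted by size. Points are edgeR estimates, bars are 95% intervals, filled points passed an adjusted p of 0.05 and "(other)" marks genes outside the 10 members. Socs1 lies farthest to the right at 3.50, and Socs4 is the 1 gene called lower.

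JAK1, JAK2 and TYK2 are the kinases that sit on cytokine receptor chains, JAK1 and TYK2 on interferon receptors among others and JAK2 on the receptors of growth hormone and interferon-γ. Jak2 (ENSMUSG00000024789, GRCm38 chr19:29251828-29313080, plus strand) was at 33.9, 30.1, 26.1 and 31.0 CPM in control libraries 1 to 4 and at 45.2, 39.2, 46.4 and 49.4 CPM in RANKL libraries 1 to 4. The lowest RANKL library lay above the highest control library. The mean went from 30.2 ± 3.2 to 45.1 ± 4.3 CPM (SD, n = 4 each), for a log2 fold change of 0.58 with a standard error of 0.15 (edgeR adjusted p = 0.0052). Tested on CPM by exact two-sided permutation, p was 0.0286, which is the smallest value that the 70 assignments of 4 against 4 libraries allow.

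Tyk2 (ENSMUSG00000032175, chr9:21104068-21131243, minus strand) was at 36.2, 43.2, 29.6 and 36.1 CPM in the control libraries and at 51.7, 59.2, 54.2 and 44.5 CPM in the RANKL libraries. The groups did not overlap, although the gap between control library 2 and RANKL library 4 was small. The log2 fold change was 0.53 (standard error 0.15, edgeR adjusted p = 0.01). Without RANKL library 2 it was 0.46 and missed the threshold, with an adjusted p of 0.055.

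Jak1 (ENSMUSG00000028530, chr4:101152367-101265282, minus strand) had the highest level of the 3 kinases on the CPM scale and the smallest change. It was at 90.4, 85.6, 105 and 107 CPM in the control libraries and at 98.5, 134, 129 and 108 CPM in the RANKL libraries. RANKL library 1 lay below control libraries 3 and 4, so the groups overlapped. The mean went from 97.0 ± 10.5 to 117 ± 17.0 CPM (SD, n = 4), for a log2 fold change of 0.32 with a standard error of 0.12 at an edgeR adjusted p of 0.0497, just inside the threshold. The exact two-sided permutation test gave p = 0.114. The call was lost in 8 of 16 alternative settings, among them DESeq2 (adjusted p = 0.13), and in the fits without control library 1 (adjusted p = 0.11), control library 2 (0.16), RANKL library 2 (0.20) or RANKL library 3 (0.17).

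**Figure D2:**
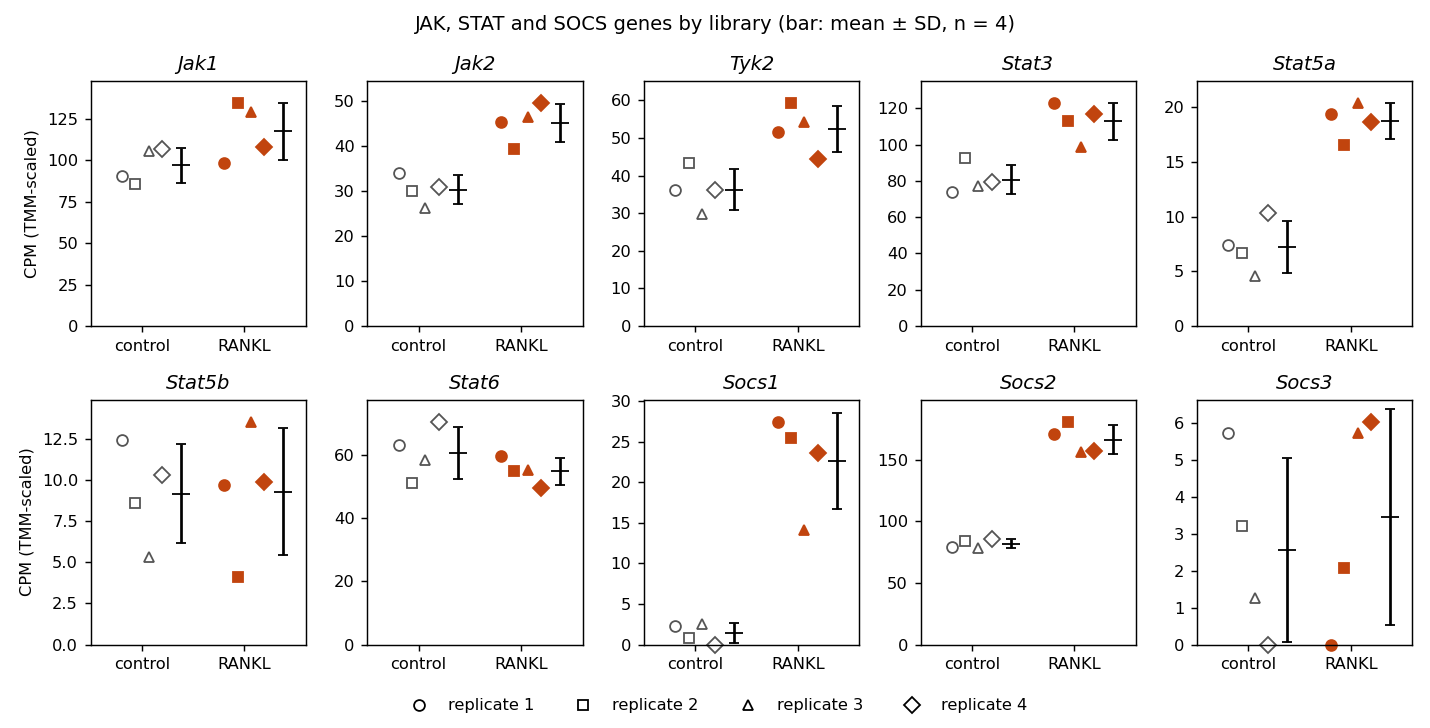
TMM-scaled CPM of the 10 members in each library, with every vertical axis starting at 0. Open markers are control libraries, filled markers RANKL libraries, the marker shape gives the replicate number, and bars give the mean ± SD of 4 libraries. Jak2, Tyk2, Stat3, Stat5a, Socs1 and Socs2 show no overlap between the groups, and the other 4 genes do overlap.

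Among the STAT genes, Stat5a changed most. STAT5A and STAT5B are close relatives that act downstream of growth hormone, prolactin and several interleukins. Stat5a (ENSMUSG00000004043, chr11:100859351-100885169, plus strand) had 58, 25, 18 and 6 counts in the control libraries, which is 7.38, 6.71, 4.56 and 10.3 CPM. It had 12, 24, 39 and 34 counts in the RANKL libraries, or 19.4, 16.5, 20.3 and 18.7 CPM. Every RANKL library held more than every control library. The mean went from 7.24 ± 2.38 to 18.7 ± 1.6 CPM (SD, n = 4), a ratio of 2.585. The edgeR estimate was a log2 fold change of 1.5 with a standard error of 0.25 (edgeR adjusted p = 2.5e-05), or 2.82-fold. Of all tested genes, 215 had a larger log2 fold change.

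Its neighbour Stat5b (ENSMUSG00000020919, chr11:100780731-100850724, minus strand) gave no such difference. Stat5b had 98, 32, 21 and 6 control counts (12.5, 8.59, 5.32 and 10.3 CPM) and 6, 6, 26 and 18 RANKL counts (9.69, 4.13, 13.6 and 9.89 CPM). The groups overlapped fully, with both the lowest and the highest value in the RANKL group. The log2 fold change was 0.04 with a 95% interval from -0.58 to 0.66 (edgeR adjusted p = 0.94), so a change of up to about that size in either direction was not detectable at this depth. Stat5a and Stat5b lie in 1 cluster of STAT genes on chromosome 11, are transcribed away from each other and have 8626 bases between their 5′ ends.

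The makeup of STAT5 transcripts followed from this. Stat5a gave 37.2%, 43.9%, 46.2% and 50.0% of the counts on both genes in control libraries 1 to 4, and 66.7%, 80.0%, 60.0% and 65.4% in RANKL libraries 1 to 4. Stat5a thus held at most an equal share in the control libraries and the larger share in the RANKL libraries. The exact 95% binomial intervals were wide in the shallow libraries, from 21.1% to 78.9% in control library 4 and from 41.0% to 86.7% in RANKL library 1. They also included an equal share in control library 2 (30.7% to 57.6%), control library 3 (30.1% to 62.8%) and RANKL library 3 (47.1% to 72.0%). In all of these libraries the gene with the larger share was not resolved. The genes are similar in sequence: of the 50-base words in the last 500 bases of annotated transcripts, 6.33% of those of Stat5a and 15.5% of those of Stat5b occur in the other gene. Reads of 50 bases from such stretches could be split or dropped in counting, so the shares of the pair are uncertain to that extent.

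Stat3 (ENSMUSG00000004040, chr11:100885098-100939540, minus strand) encodes the main STAT of the IL-6, IL-11 and IL-22 families. It was at 74.0, 92.6, 77.0 and 79.1 CPM in the control libraries and at 123, 113, 98.6 and 117 CPM in the RANKL libraries. No RANKL library fell below a control library. The mean went from 80.7 ± 8.2 to 113 ± 10.3 CPM (SD, n = 4), for a log2 fold change of 0.47 with a standard error of 0.12 (edgeR adjusted p = 0.0033). The 3′ ends of Stat3 and Stat5a face each other and overlap by 72 bases on opposite strands. Counting used the strand, which separates the reads of the pair.

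Stat6 (ENSMUSG00000002147, chr10:127642986-127660957, plus strand), the STAT of IL-4 and IL-13, was the 1 member with a lower mean in the RANKL group. It was at 63.1, 51.0, 58.3 and 70.5 CPM in the control libraries and at 59.7, 55.1, 55.3 and 49.4 CPM in the RANKL libraries. The groups overlapped, and the log2 fold change of -0.13 had a 95% interval from -0.39 to 0.14 (edgeR adjusted p = 0.53). A rise of the size of that of Stat3 lies outside this interval.

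The largest change among the members was that of Socs1. SOCS1 is a direct inhibitor of JAK1, JAK2 and TYK2 and a classic brake on interferon-γ signalling. Socs1 (ENSMUSG00000038037, chr16:10782240-10785536, minus strand) had 18, 3, 10 and 0 counts in the control libraries, which is 2.29, 0.805, 2.53 and 0 CPM. It had 17, 37, 27 and 43 counts in the RANKL libraries, or 27.4, 25.5, 14.1 and 23.6 CPM. In CPM the lowest RANKL library thus lay several-fold above the highest control library, although the 4 RANKL libraries were shallower as a group. The mean went from 1.41 ± 1.21 to 22.7 ± 5.9 CPM (SD, n = 4), a ratio of 16.1. The edgeR estimate was a log2 fold change of 3.50 with a standard error of 0.33 (edgeR adjusted p = 9.7e-10), or 11.3-fold. Only 48 of the tested genes had a larger log2 fold change.

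SOCS2 restrains growth hormone receptor signalling, and its gene is itself a target of STAT5. Socs2 (ENSMUSG00000020027, chr10:95385362-95417180, minus strand) was the most abundant inhibitor in both groups on the CPM scale and the steadiest between libraries. It was at 79.2, 84.0, 78.6 and 86.0 CPM in the control libraries and at 171, 181, 156 and 157 CPM in the RANKL libraries. The spread within each group was far smaller than the gap between them. The mean went from 81.9 ± 3.6 to 166 ± 11.9 CPM (SD, n = 4), for a log2 fold change of 1.03 with a standard error of 0.11 (edgeR adjusted p = 9e-09), or 2.04-fold.

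Socs3 (ENSMUSG00000053113, chr11:117966079-117970047, minus strand), the inhibitor of gp130 signalling and a standard target of STAT3, was near the limit of detection. It had 45, 12, 5 and 0 control counts (5.73, 3.22, 1.27 and 0 CPM) and 0, 3, 11 and 11 RANKL counts (0, 2.06, 5.74 and 6.04 CPM). The groups overlapped fully, and the gene did not pass the filter on low counts. Exact two-sided permutation of the CPM values gave p = 0.629 for means of 2.55 ± 2.50 and 3.46 ± 2.93 CPM (SD, n = 4). At this depth neither a rise nor a fall of Socs3 could be resolved.

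The promoters of the members were read for letters that STAT and NF-κB proteins are known to bind, because RANK is known to signal through NF-κB and the members moved unequally. RefSeq gave windows of 250 bases before 11 start sites of 9 members (GRCm38.p6). Motifs were searched on both strands. The STAT motif TTCNNNGAA was in 1 of the 11 windows, that of Socs3, as TTCTTAGAA from 154 to 146 bases before the start, and in 7.02% of all 32851 promoter windows of the same length. The STAT6 spacing, TTC and GAA with any 4 bases between them, was in 0 of the 11 windows and in 5.85% of all windows. A loose outline of the NF-κB site, GGG and CC with any 5 bases between them, was in 8 of the 11 windows and in 45.8% of all windows. Its fixed letters are all G or C, and the member windows held from 46.4% to 82.0% G and C. The share of all windows was not matched for this, so the 2 shares cannot be read as an enrichment. Some member windows lay partly in annotated exons, up to 175 bases in a window of Stat5a.

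Shown here 5′ to 3′ on the strand of the gene are the windows of the member with the largest rise (Socs1, chr16:10785537-10785786, minus strand), of a STAT gene that rose (Stat3, chr11:100939541-100939790, minus strand) and of a STAT gene that did not pass the test (Stat6, chr10:127642736-127642985, plus strand). Capitals mark matches to the NF-κB outline. None of these 3 windows holds either STAT spacing.
Socs1: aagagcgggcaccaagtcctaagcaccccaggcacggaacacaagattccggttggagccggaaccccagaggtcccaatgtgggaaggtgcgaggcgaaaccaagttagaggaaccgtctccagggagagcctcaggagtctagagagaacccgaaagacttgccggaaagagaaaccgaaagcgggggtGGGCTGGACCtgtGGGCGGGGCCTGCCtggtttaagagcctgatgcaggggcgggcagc
Stat3: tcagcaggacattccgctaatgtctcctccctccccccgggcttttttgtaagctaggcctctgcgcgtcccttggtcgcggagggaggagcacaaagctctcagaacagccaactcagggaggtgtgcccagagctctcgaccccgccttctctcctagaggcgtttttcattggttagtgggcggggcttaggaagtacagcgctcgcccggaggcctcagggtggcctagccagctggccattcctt
Stat6: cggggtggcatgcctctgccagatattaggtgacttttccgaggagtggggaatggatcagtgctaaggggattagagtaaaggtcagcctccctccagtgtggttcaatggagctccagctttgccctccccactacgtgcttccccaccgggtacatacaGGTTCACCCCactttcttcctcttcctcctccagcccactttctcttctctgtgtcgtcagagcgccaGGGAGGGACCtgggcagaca
Socs1 held 3 matches, at 59 to 50, 46 to 37 and 42 to 33 bases before the start, of which the last pair overlap. Stat6 held 2 matches and Stat3 none. Socs1, with the largest rise, and Stat6, which did not pass the test, thus both carry the outline, which is a description of these windows and not of binding.

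Ratios of members within a library do not depend on the scaling of the libraries, and 6 pairs were compared. Stat5a over Stat5b went from a mean log2 ratio of -0.33 ± 0.32 in control to 1.08 ± 0.58 in RANKL libraries (SD, n = 4), a difference of 1.41 (standard error 0.33). The groups did not overlap, and the exact two-sided permutation test gave p = 0.0286, or 0.0857 after Benjamini-Hochberg adjustment over the 6 pairs. Socs1 over Socs3 went from -0.55 ± 1.25 to 2.93 ± 1.72, a difference of 3.48 (standard error 1.07), with the same exact p-values and no overlap. Stat3 over Stat6 went from 0.41 ± 0.31 to 1.03 ± 0.17, with 1 control library inside the RANKL range and an exact p of 0.0571 (adjusted 0.114).

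The remaining ratios did not separate the groups. Jak1 over Jak2 differed by -0.31 (standard error 0.21) and Jak1 over Tyk2 by -0.26 (standard error 0.19), each with an exact permutation p of 0.2. Socs2 over Socs3 differed by 0.60 (standard error 0.97). None of the 6 adjusted values passed 0.05, and with 4 libraries in each group and 6 pairs only a change that separated the groups fully in at least 4 pairs could have done so.

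**Figure D3:**
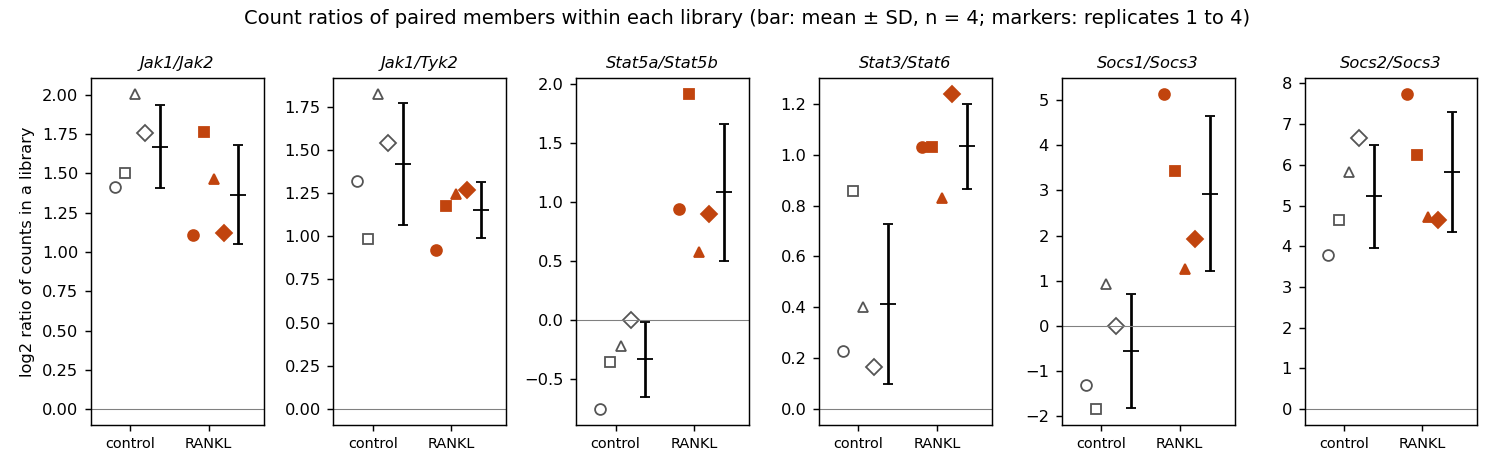
Log2 ratio of the counts of paired members within each library, with 0.5 added to each count and a grey line at equal counts. Open markers are control libraries, filled markers RANKL libraries, and bars give the mean ± SD of 4 libraries. Stat5a over Stat5b lies at or below 0 in the control libraries and above 0 in the RANKL libraries, while the ratios of the kinases overlap.

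None of the 8 further genes of the 3 families was called higher. Of these 8 genes 5 were tested, 0 were higher and 1 was lower, with a median log2 fold change of -0.08. Among all tested genes 13.6% were higher and 12.4% were lower, and 5 genes are too few to set these counts apart from those shares. Socs4, whose product restrains EGF receptor signalling, went from 46.6 ± 6.0 to 34.9 ± 4.0 CPM (SD, n = 4), the control libraries spanning 42.1 to 55.3 and the RANKL libraries 31.3 to 40.2 CPM. Its log2 fold change was -0.42 (standard error 0.15, edgeR adjusted p = 0.041), and it kept the call in 7 of 16 alternative settings.

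Stat2, a STAT gene of type I interferon signalling, had a log2 fold change of -0.09 (edgeR adjusted p = 0.86). Socs5, Socs6 and Socs7 had 0.34, -0.08 and 0.28 (edgeR adjusted p of 0.47, 0.74 and 0.17). Jak3, the kinase of receptors that share the common gamma chain of lymphocytes, was untested, with means of 0.943 and 3.70 CPM. Cish, a direct STAT5 target and the closest relative of Socs2, was also untested, at 1.96 ± 2.15 and 1.61 ± 1.17 CPM (SD, n = 4). Stat4 had 0 counts in all libraries.

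Most tested receptors that signal through the JAK kinases were higher with RANKL. Of 43 listed receptor genes 13 were tested, 8 were higher and 1 was lower, with a median log2 fold change of 0.67, against 13.6% higher and 12.4% lower among all tested genes. Il4ra, the chain shared by the IL-4 and IL-13 receptors that activates STAT6, went from 46.8 ± 8.2 to 185 ± 45.3 CPM (SD, n = 4), for a log2 fold change of 2.10 with a standard error of 0.14 (edgeR adjusted p = 6.7e-13). Il6st encodes gp130, the shared chain of the IL-6 family that leads to STAT3, and went from 13.9 ± 5.4 to 40.7 ± 9.0 CPM, for a log2 fold change of 1.41 with a standard error of 0.21 (edgeR adjusted p = 5.6e-06). Ifnar2, a chain of the type I interferon receptor that works with TYK2 and JAK1, had a log2 fold change of 1.84 with a standard error of 0.29 (edgeR adjusted p = 1.1e-05) from 4.26 ± 1.51 CPM in control libraries. None of these 3 genes showed any overlap between the groups.

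The other 5 receptor genes called higher, named here after their values were seen, were Il11ra1 (0.96), Il15ra (0.81), Ifngr2 (0.78), Il13ra1 (0.67) and Ifngr1 (0.55 on the log2 scale). Of these, Il13ra1 and Il15ra each lost the call in 6 of 15 alternative settings, and the 3 others in 0 of 16. Ghr, the growth hormone receptor that uses JAK2 and STAT5, was lower, 18.5 ± 8.7 CPM falling to 12.1 ± 3.6 CPM (SD, n = 4). The groups overlapped, the log2 fold change was -0.74 (standard error 0.26, edgeR adjusted p = 0.032), and the call was lost in 6 of 15 alternative settings. The prolactin receptor gene Prlr, also upstream of STAT5 and at 115 ± 11.6 CPM in control libraries, had a log2 fold change of -0.16 (edgeR adjusted p = 0.30). Among 30 untested receptor genes 12 had 0 counts in all libraries. The untested Il22ra1, named here after its values were seen, had 21 control counts and 1 RANKL count. It was at 0.891 to 5.16 CPM in control and 0 to 0.549 CPM in RANKL libraries, without overlap (exact two-sided permutation p = 0.0286). No other untested receptor gene separated the groups. The filter on low counts left Il22ra1 out, so the receptors called lower do not include it. Its counts are close to the detection limit.

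The cytokines that bind these receptors were hardly present. None of 38 listed ligand genes had enough counts to be tested, 23 had 0 counts in all libraries, and the highest group mean was 4.60 CPM. That gene was Il23a, with 30 counts in the RANKL libraries and 1.04 ± 0.60 against 4.60 ± 2.14 CPM (SD, n = 4), named here after its value was seen. Il6, Il22, Ifng, Il4 and Il13 were among the genes at 0.

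Phosphatases and PIAS proteins hold the pathway in check by other means. Of 12 listed genes of these kinds 11 were tested, 1 was higher and 0 were lower, with a median log2 fold change of 0.03. Among all tested genes 13.6% were higher and 12.4% lower, so 1 of 11 does not stand out from that background. The gene called higher was Dusp3, which encodes a phosphatase of the dual-specificity family, at 0.57 (standard error 0.21, edgeR adjusted p = 0.049), and it lost the call in 10 of 15 alternative settings. All 7 listed genes of the ubiquitin ligase that binds the SOCS box were tested, with 2 higher and 0 lower, on the same background of 13.6% and 12.4%. They were Ube2f, an enzyme that attaches NEDD8 to cullin 5, at 0.78 (standard error 0.15, edgeR adjusted p = 0.00027), and Ube2d3, a ubiquitin-conjugating enzyme, at 0.27 (standard error 0.09, edgeR adjusted p = 0.03), which lost the call in 6 of 16 alternative settings. Cul5, the scaffold of the ligase, had a log2 fold change of 0.00 on 59.0 ± 3.1 and 57.4 ± 9.95 CPM (SD, n = 4).

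Of 31 listed STAT3 targets 19 were tested, 8 were higher and 2 were lower, with a median log2 fold change of 0.12. The shares among all tested genes were 13.6% higher and 12.4% lower, so the 2 lower genes are close to the background. Reg3g, an antimicrobial lectin of the gut, went from 86.0 ± 8.0 to 1015 ± 16.4 CPM (SD, n = 4), for a log2 fold change of 3.55 with a standard error of 0.11 (edgeR adjusted p = 9.3e-22). Its relatives Reg3a and Reg3b had 0.11 and 0.10 and did not pass the test (edgeR adjusted p of 0.47 and 0.67). Bcl3, a partner of NF-κB subunits, had 2.83 (standard error 0.12, edgeR adjusted p = 8.5e-18).

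Icam1, an adhesion molecule, was not counted in any control library (0 counts) but had 165 counts with RANKL, at least 159-fold higher against 3 counts over the control group. It passed the filter on low counts through the RANKL libraries alone. The median of the STAT3 list is also 0.12 with Icam1 at that bound. Myc, the growth regulator, was lower at -0.91 (standard error 0.31, edgeR adjusted p = 0.029) and lost the call in 6 of 15 alternative settings. Bcl3 and Icam1 are also known targets of NF-κB, and no list holds genes that answer to STAT proteins alone.

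Of 14 listed STAT5 targets 6 were tested, 2 were higher and 1 was lower, against 13.6% and 12.4% of all tested genes, and 6 genes are too few to set these counts apart from those shares. Ccnd2, cyclin D2 of the cell cycle, went from 4050 ± 325 to 2366 ± 140 CPM (SD, n = 4), for a log2 fold change of -0.78 with a standard error of 0.09 (edgeR adjusted p = 1.5e-07). The survival genes Mcl1 and Bcl2l1, which are also on the STAT3 list, were higher at 0.69 and 0.54 (standard error 0.12 each, edgeR adjusted p of 5.2e-05 and 0.0013). Of 17 listed STAT6 targets only 3 were tested. Il4ra was higher, while the goblet cell genes Clca1 and Tff3 had log2 fold changes of 0.08 and -0.01 (edgeR adjusted p of 0.71 and 0.96).

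Over these pathway lists, with each gene counted once and the 10 members left out, 58 of 160 genes were tested, 18 were higher and 5 were lower, beside 13.6% higher and 12.4% lower among all tested genes. The 5 lower genes are close to that background. Genes high in 1 group alone, such as Icam1 and Ifnar2 with RANKL, could enter the tested set through that group.

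**Figure D4:**
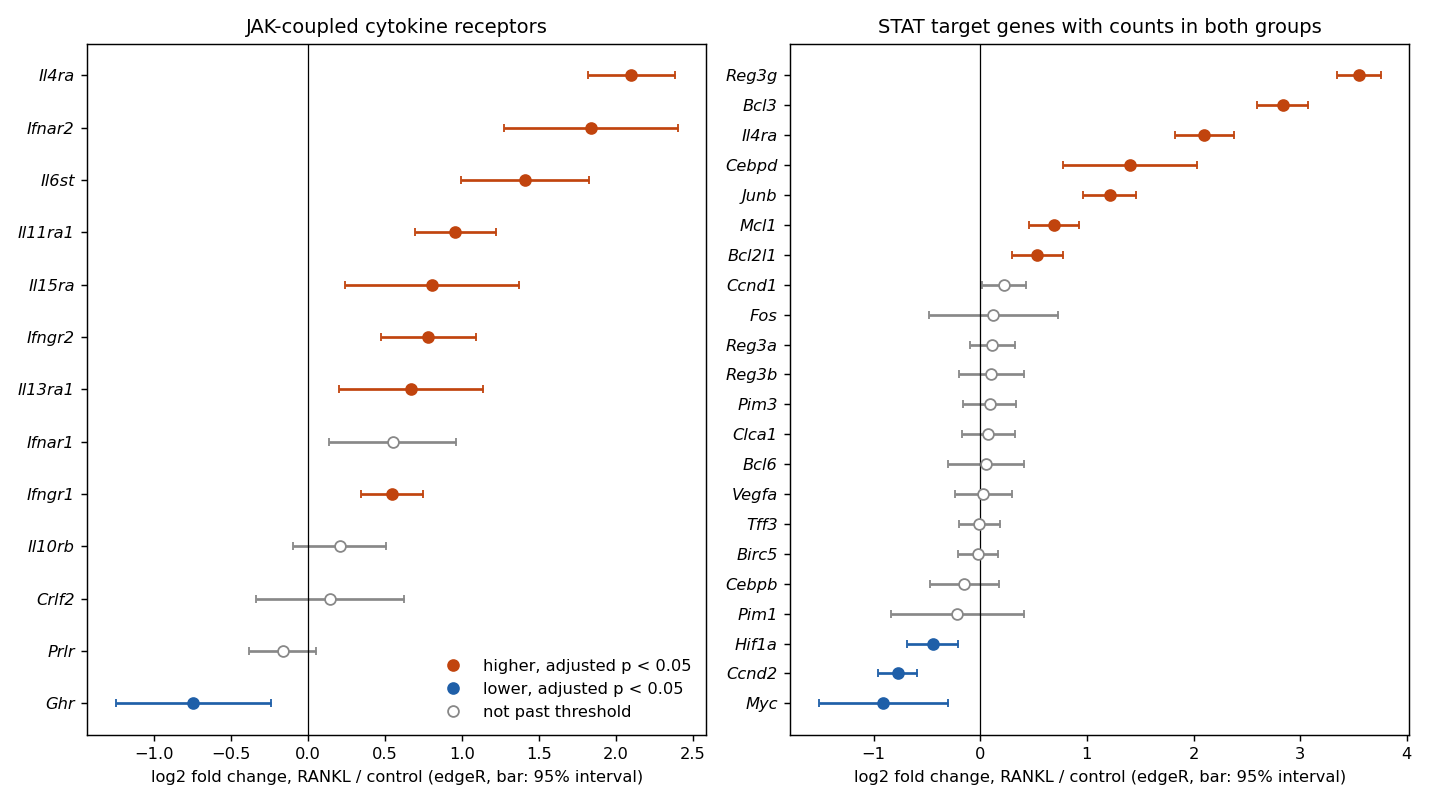
Log2 fold change of RANKL-treated against control organoids for the tested genes among the JAK-coupled cytokine receptors (left) and the STAT3, STAT5 and STAT6 target lists (right), sorted by size. Points are edgeR estimates, bars are 95% intervals and filled points passed an adjusted p of 0.05. Il4ra leads the receptors at 2.10 and Reg3g the targets at 3.55. Icam1 is not drawn because it had 0 control counts.

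Markers of cell types were read beside these genes. M cells are the antigen-sampling cells of the epithelium over lymphoid follicles. Of their 6 listed markers 5 were tested and 5 were higher, beside 13.6% higher and 12.4% lower among all tested genes. Spib, Ccl20 and Tnfaip2 stayed at or below 5.37 CPM in the control libraries. They passed the filter on low counts through their RANKL libraries, so their calls as higher were partly fixed by the filter. The summed level of the M cell markers was 46.4 to 49.9 CPM in control and 1761 to 2027 CPM in RANKL libraries. Most of the RANKL sum was Spib (mean 1607 CPM), and most of the control sum was Ccl9 (mean 30.9 CPM). Gp2, a marker of mature M cells, was at 0 in all libraries. Of 7 general epithelial markers 0 were higher and 2 were lower, with sums of 6528 to 7573 and 6241 to 6884 CPM. Stem cell markers were split, with 1 of 4 higher and 2 lower, and their sums ran from 1192 to 1601 and from 1018 to 1221 CPM. The epithelial and stem cell sets are too small to set their counts apart from the shares of all tested genes. Of 5 enterocyte markers 1 was higher, and of 4 goblet cell markers 1 was lower. None of the 4 Paneth, 4 enteroendocrine and 1 tested tuft cell markers was called.

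Immune markers were at the detection limit: 6 of 11 had 0 counts in all libraries, Cd3e and Itgax among them. Ptprc (CD45) had 1 count in all, the highest group mean was that of Csf1r with 5.29 CPM in control libraries, and sums were 3.44 to 8.87 CPM in control and 3.44 to 11.99 CPM in RANKL libraries. Stromal and endothelial markers summed to 5.48 to 24.1 and 21.3 to 27.6 CPM, and Pdgfrb was the 1 of 10 that could be tested and was higher (log2 fold change 2.53). The part of cell composition in the changes of the members was not tested.

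The patterns closest to the 3 members with the largest changes were sought over the 8 libraries, among 6647 tested genes with a mean of at least 20 CPM. Likeness is given as the root mean square distance between log2 levels centred on each gene, and is a description with no test. Nearest to Socs1 were Slc25a48 (0.45), Nfkb2 (0.48) and Relb (0.50), the last pair of which encode subunits of NF-κB. Nearest to Stat5a were Tuba1a (0.14), Fabp5 (0.15) and Slc16a6 (0.16), and nearest to Socs2 were Tank (0.075), Sox4 (0.079) and Tmem86a (0.096). The 8 libraries share 1 treatment contrast, so these distances rest mainly on the size of the difference between the groups.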

How the data were processed

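Bulk QuantSeq 3′ libraries of 8 organoid samples gave single 50-base reads. The authors trimmed reads, discarded ribosomal and other abundant sequences, mapped to GRCm38 (STAR) and ran featureCounts on the sense strand against Ensembl 94. They deposited raw counts without normalization. Condition and replicate follow the sample labels. Counts were tested with edgeR 4.0.16 (R 4.3.3) using TMM, filterByExpr and the quasi-likelihood F test over 9971 genes. The study's own method, DESeq2 (version 1.42.0 here), and limma-voom (limma 3.58.1) served as alternatives, with other scalings and filters, a replicate block, an adjusted p of 0.01 and each library left out. The standard error is the log2 fold change divided by the square root of F. Positions come from GENCODE M21 and promoters from RefSeq (GRCm38.p6). The steps were tested on simulated data. Depths are given with the results. The members, gene lists and tests were chosen with earlier results of these data known. Genes named from a list are at most 4 called genes averaging 5 CPM or more, by size of change, with each direction kept. Every member and family gene is named too. Other genes, such as Prlr, Cul5, Reg3a, Reg3b, Clca1, Tff3, Il23a and the ligands at 0, were chosen after their values were seen. Some genes are not reported here.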

Additional observations from a re-analysis of the deposited data

Results flagged for a closer look

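In 2 of 74 groups of 4 libraries, over the members, their relatives, the named list genes and the ratios, 1 library stood apart from the other 3 by Dixon's criterion, and chance alone would give about 3.7. Cish was at 5.16 CPM in control library 4, against 1.15 CPM in the next library of its group. That library is the shallowest, where 5.16 CPM is 3 counts. Socs5 was at 9.69 CPM in RANKL library 1, the shallowest of its group, against 7.30 CPM in the next. Cish had too few counts to be tested, and Socs5 did not pass the test.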

How the results depend on the processing

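The number of members called higher ran from 5 to 7 over 17 alternatives and the number called lower was 0 in each. Over 9 member fold changes and 141 alternative values, 132 stayed on their side of the threshold, 9 lost the call (8 of Jak1, 1 of Tyk2) and 0 gained one. No called member changed sign, while Stat5b, not called, did so in 4 of 15. Over the pathway lists, the 18 genes called higher ran from 12, with at least 10 counts in every library, to 19. The 5 called lower became 3 with limma-voom or at least 10 counts in every library, and 2 under DESeq2 or at an adjusted p of 0.01. Leaving out 1 library at a time gave 2 to 6 lower (3 without RANKL library 1 or 2, 2 without RANKL library 4) and 14 to 19 higher. Over 27 list and family genes and 421 alternative values, 49 lost the call, 1 gained one (Socs7 without control library 1, adjusted p = 0.035) and no called value changed sign. Of the genes not called, Stat2 changed sign in 2 of 15 and Socs6 in 1 of 16. Control and RANKL libraries of the same replicate number correlated at -0.01, -0.03, 0.10 and 0.04 in their deviations from the group mean. Such low values cannot show whether the libraries were paired, and the labels do not say. With the replicate block 6 members were called higher, the one lost being Jak1 (adjusted p = 0.053), and 18 list genes were higher and 4 lower. Without both of the shallowest libraries, an alternative chosen after seeing the data, as were the list fits without 1 library, 7 members were called higher. Depth limits Socs1, Stat5a, Stat5b and Socs3 most: the control libraries held 31 counts of Socs1 and the RANKL libraries 25 of Socs3.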
